A study of Mus musculus with 22 samples.

Results

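Itgam, Itgal, Itga4 and Itgb2, which encode leukocyte integrin subunits, were followed with Selplg and Icam1 as 6 of the 23091 genes listed across 22 count tables of sorted intestinal neutrophils. The genes were chosen by name, and each had a row in 22 of the 22 tables. The tables come from CEL-Seq2, a plate method for sequencing the RNA of single cells that tags the 3′ end of each transcript with a unique molecular identifier, on CD45+H2kb+CD11b+Ly6G+ cells of the terminal ileum, a gate for neutrophils derived from the transplant donor. The recipients were BALB/c mice aged 7 to 9 weeks, irradiated with 2 doses of 5 Gy, and cells were taken 21 days after an allogeneic transplant. All recipients received 5000000 bone marrow cells from C57BL/6 donors aged 7 to 10 weeks, the source of the gated cells, and the group with acute graft-versus-host disease (aGVHD) also received 400000 donor T cells, while the control group received none. No genetic change is named in the labels for donors or recipients, apart from the strain difference. There were 10 control and 12 aGVHD libraries. The labels do not say which mouse a library came from, so p-values describe variation among libraries, part of which may be technical.

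Neutrophils leave the blood in steps that each use a different adhesion molecule. P-selectin glycoprotein ligand, the product of Selplg, tethers rolling cells to selectins on the vessel wall. Chemokine signals then switch the integrins that contain the Itgb2 subunit (CD18) to their binding state. Itgal (CD11a) pairs with Itgb2 to form LFA, and Itgam (CD11b) pairs with it to form Mac, and both bind Icam1. Itga4 (CD49d) instead pairs with Itgb1 or Itgb7 and binds VCAM and MAdCAM on the vessel wall of inflamed or intestinal tissue. Icam1 is known mainly as a counter-receptor on endothelium, and neutrophils can make it themselves when activated. The sort used CD11b, the protein made from Itgam, so every cell was chosen as carrying that protein, and the transcript levels of Itgam are those within the gate.

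Promoter sequence was at hand for 3 of the 6 genes, from RefSeq on mouse build GRCm38.p6. These are the 250 bases before the annotated start, 5′ to 3′ on the gene's own strand, which is the plus strand for each. They are shown because Itgam and Itga4 had the most positive and the most negative difference between groups, and because Icam1 is a textbook NF-kB target. Capitals mark GAGGAA (or its reverse complement TTCCTC), the purine-rich core recognised by the myeloid factor PU.1, and the NF-kB letters GGAAATTCC (or GGAATTTCC).
Itgam promoter, chr7:128062390-128062639: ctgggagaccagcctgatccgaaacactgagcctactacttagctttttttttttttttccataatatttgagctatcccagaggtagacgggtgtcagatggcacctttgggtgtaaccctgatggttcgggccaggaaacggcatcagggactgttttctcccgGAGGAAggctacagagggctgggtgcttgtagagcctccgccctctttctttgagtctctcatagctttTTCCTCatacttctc
Icam1 promoter, chr9:21015690-21015939: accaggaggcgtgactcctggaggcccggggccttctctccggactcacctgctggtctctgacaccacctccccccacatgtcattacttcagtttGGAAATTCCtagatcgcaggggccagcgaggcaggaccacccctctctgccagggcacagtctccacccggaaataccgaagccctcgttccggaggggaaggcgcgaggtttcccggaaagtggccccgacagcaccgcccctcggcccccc
Itga4 promoter, chr2:79255176-79255425: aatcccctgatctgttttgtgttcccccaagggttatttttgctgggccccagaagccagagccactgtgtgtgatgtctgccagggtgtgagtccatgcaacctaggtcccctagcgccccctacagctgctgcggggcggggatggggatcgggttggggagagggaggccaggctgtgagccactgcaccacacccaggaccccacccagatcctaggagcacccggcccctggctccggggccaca
In the Itgam window GAGGAA began 84 bases before the start on the plus strand, and TTCCTC began 15 bases before it, which is the same core on the minus strand. The GGAAATTCC of Icam1 began 153 bases before the start. The Itga4 window held neither set of letters. Among 32851 windows of 250 bases, 23.3% held the PU.1 core on either strand and 0.286% (94 windows) held the NF-kB letters. These matches describe the sequence only.

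The libraries differed in size more than in depth per cell. Barcodes with a rounded total of at least 500 transcripts were kept as cells, 1383 of 4224, with 11 to 60 per control library (358 in all) and 74 to 95 per aGVHD library (1025). Totals ran from 45607 to 360054 transcripts per library, and the transcripts of named genes in kept cells from 8496 to 234002. Control replicates 5, 9 and 10 held 12, 12 and 11 cells, and Itga4 rested on 1 transcript in each of them. Levels are in CPM, the transcripts of a gene summed over the cells of a library and scaled to an equal total of named-gene transcripts. CEL-Seq2 counts transcript ends, so levels of different genes were compared without a length correction. The titles form a dated set (6 control, 8 aGVHD libraries) and a G1 set (4 and 4), which entered each model as a covariate. No 2 cell columns were identical, and all 192 plate barcode numbers with cells recurred in more than 1 library, since each plate reuses them.

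The gate was checked against marker genes. Cells with at least 5 transcripts of S100a8 and S100a9, alarmin subunits abundant in neutrophils, and at most 2 of C1qa, C1qb and C1qc, complement genes of macrophages, are called S100 cells here. They numbered 688, made up 32.8% ± 10.6 (SD, n = 10) of the kept cells of control libraries and 54.7% ± 19.9 (SD, n = 12) of aGVHD libraries, and reached the minimum of 5 cells in 7 control and 12 aGVHD libraries. Cells with at least 5 C1q transcripts, whatever their S100 count, numbered 52 (20 and 32), and 643 cells (214 and 429) belonged to neither class. S100-rich cells with more than 2 and fewer than 5 C1q transcripts fell into neither class, so that class also held S100-rich cells. Over all gated cells, 7 of the 14 tested neutrophil markers were higher in aGVHD and 0 lower, and the summed level of the 18 markers ran from 18316 to 40878 CPM in control and from 31269 to 106606 in aGVHD libraries. For the 9 dendritic cell markers the sum ran from 384 to 2202 CPM in control and from 144 to 625 in aGVHD libraries, with 2 of 3 tested markers lower. The sum of macrophage and monocyte markers overlapped between the groups, from 551 to 11310 CPM in control and from 1151 to 9608 in aGVHD libraries, with 0 of 9 tested markers past the test. The 11 epithelial markers summed to 0 to 20795 CPM in control and 15.5 to 6823 in aGVHD libraries, with 0 of 3 tested markers past it and Fabp1 at 0 in every control library. The 9 B or plasma cell markers reached the highest single-library sums outside the neutrophil list and ran from 243 to 69683 CPM in control (median 1387) and from 214 to 70361 in aGVHD libraries (median 416), with 0 of 2 tested past it. Within S100 cells the median sums in control and aGVHD libraries were 50964 and 67592 CPM for neutrophil, 2260 and 249.5 for epithelial, 538 and 255 for dendritic and 1054 and 432 for B or plasma cell markers. None of the tested markers of these lists passed there. Single libraries lay far above these medians. The highest sums in control and aGVHD libraries were 130397 and 93073 CPM for B or plasma cell and 30369 and 7686 CPM for epithelial markers. Mitochondrial transcripts made up 15.4% ± 3.11 (SD, n = 10) of the named-gene transcripts of control libraries, against 10.8% ± 3.42 (SD, n = 12) for aGVHD, over all gated cells, and 11.5% ± 3.15 (SD, n = 7) and 9.76% ± 4.07 (SD, n = 12) in S100 cells. The neutrophil list holds S100a8 and S100a9, whose transcripts define S100 cells, so its sums within a class are not free of that choice. The part of these sums and shares in the results on the members was not tested. Because a sum over sorted cells mixes these classes, a larger share of neutrophils and more transcript per neutrophil cannot be told apart in it.

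Itgam was higher in aGVHD than in control libraries when all gated cells were summed, and it was the only 1 of the 6 genes to pass the test. Selplg and Icam1 had positive differences, Itga4 and Itgal negative ones, and Itgb2 one near 0, none of them past the threshold. In this comparison 146 of 1712 genes (8.53%) passed limma's threshold of an adjusted p under 0.05, of which 77 (4.5%) were higher and 69 (4.03%) lower, and the median log2 fold change of all genes was 0.02. Of the 6 members 1 was called, to be read against those 8.53%, and the 6 were not tested as a set.

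The level of Itgam ran from 152 to 643 CPM in control libraries (median 348) and from 363 to 939 CPM in aGVHD libraries (median 617). All 12 aGVHD libraries lay above the control mean, 5 of them above the highest control library, and 6 of 10 control libraries lay below the lowest aGVHD library. The mean level was 360.5 ± 159 CPM (SD, n = 10) in control and 657 ± 173 CPM (SD, n = 12) in aGVHD, a ratio of means of 1.82. Itgam rose, with a log2 fold change of 0.84 (SE 0.22, adjusted p = 0.0218 by limma). Taken alone, the dated libraries gave Itgam a log2 fold change of 0.97 (SE 0.32, adjusted p = 0.0878 by limma) and the G1 libraries 0.66 (SE 0.29, adjusted p = 0.478 by limma), so the direction was the same in each set and neither passed by itself. The difference between the sets, tested as an interaction, was 0.34 (SE 0.46, adjusted p = 0.939 by limma).

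The call of Itgam depended on which libraries and cells entered. Without control replicate 1 the log2 fold change of Itgam was 0.76 (limma adjusted p = 0.0547), and without control replicate 6 it was 0.74 (limma adjusted p = 0.0535); these were the control libraries with low Itgam, at 152 and 166 CPM. In the other 20 of 22 cases with 1 library left out Itgam stayed past the threshold. Over the 18 libraries with at least 20 cells Itgam had 0.75 (limma adjusted p = 0.119), and without cells of very high total or high Kcnq1ot1, a nuclear RNA used here as a sign of low-quality cells, it had 0.59 (limma adjusted p = 0.208). After thinning each cell to 500 transcripts it had 0.91 (limma adjusted p = 0.0592).

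**Figure D1:**
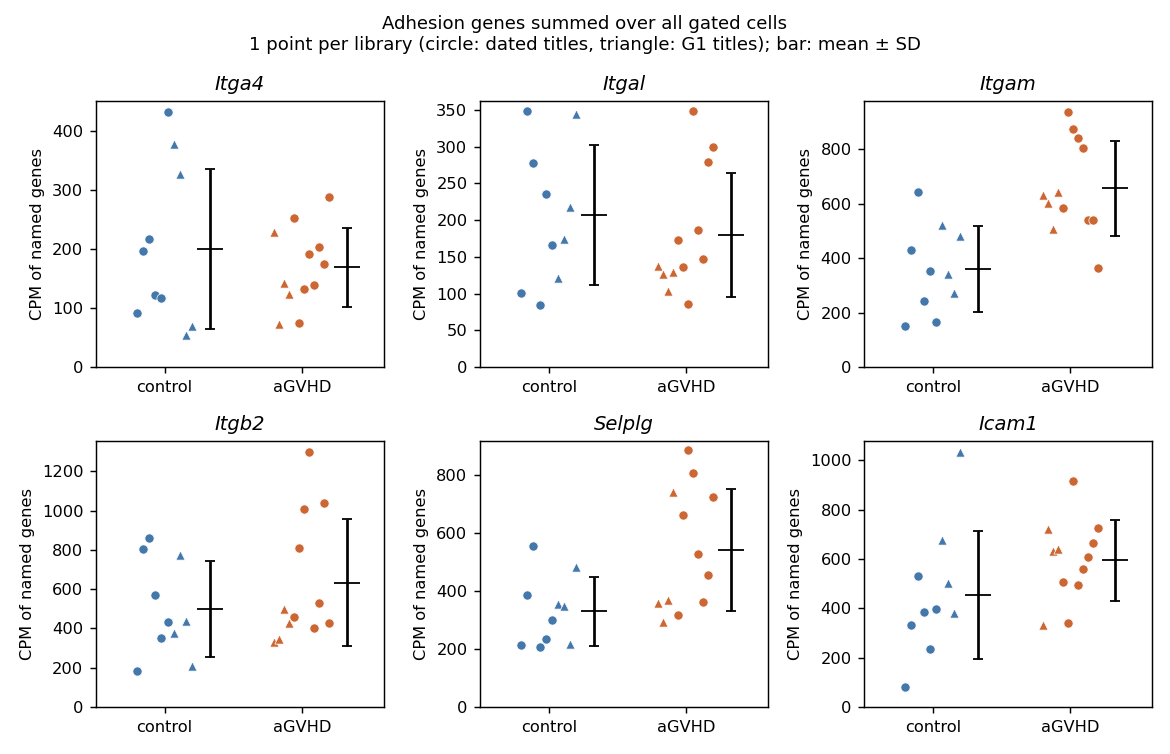
Level of each gene in CPM of named genes (y axis, from 0) in 10 control and 12 aGVHD libraries, summed over all gated cells; circles are dated and triangles G1 titles, and bars give the mean ± SD. Itgam shows the clearest offset, 360.5 ± 159 against 657 ± 173 CPM, while the points of Itgal overlap throughout and 3 aGVHD points of Itgb2 lie above its control points.

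Itgb2, the subunit that Itgam and Itgal share, ran from 182 to 860 CPM in control libraries (median 434) and from 333 to 1300 CPM in aGVHD libraries (median 479). The ranges overlapped, with 3 aGVHD libraries above the highest control. Its log2 fold change was 0.14 (SE 0.25, adjusted p = 0.782 by limma), and it was negative in the G1 set alone (-0.16) and positive in the dated set alone (0.31). Itgal ran from 84.2 to 349 CPM in control libraries (median 197) and from 85.5 to 349 CPM in aGVHD libraries (median 142), and 3 of 12 aGVHD libraries lay above the control mean. Its log2 fold change was -0.21 (SE 0.26, adjusted p = 0.677 by limma). Neither Itgb2 nor Itgal showed a difference beyond the spread between libraries.

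Itga4, the VCAM-binding subunit, ran from 54.6 to 432 CPM in control libraries (median 159) and from 73.5 to 288 CPM in aGVHD libraries (median 159). The 3 highest control libraries, replicates 6, 7 and 8, lay above every aGVHD library, and the medians were almost the same. The log2 fold change was -0.42 (SE 0.28, adjusted p = 0.352 by limma).

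Selplg ran from 206 to 556 CPM in control libraries (median 324) and from 294 to 885 CPM in aGVHD libraries (median 491). Its mean level was 330 ± 120 CPM (SD, n = 10) and 542 ± 211 CPM (SD, n = 12), 10 of 12 aGVHD libraries lay above the control mean and 5 above the highest control library. For Selplg the log2 fold change was 0.58 (SE 0.23, unadjusted p = 0.0162, adjusted p = 0.109 by limma), with 0.70 in the dated and 0.36 in the G1 set. Selplg therefore missed the threshold, with the same sign in each set.

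Icam1 ran from 81.1 to 1032 CPM in control libraries (median 391) and from 333 to 915 CPM in aGVHD libraries (median 620). The highest and the lowest library of all were both controls, replicate 10 with 11 cells and replicate 1 with 49. For Icam1 the log2 fold change was 0.49 (SE 0.25, adjusted p = 0.214 by limma), with 0.81 for dated and 0.02 for G1 libraries, where control libraries averaged 648 ± 283 CPM (SD, n = 4) and aGVHD libraries 581 ± 170 CPM (SD, n = 4). The difference between the sets was not past the test (0.83, SE 0.48, limma adjusted p = 0.884).

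Within S100 cells none of the 6 genes differed between groups at the adjusted threshold. Here 0 of 874 genes (0%) passed limma's adjusted p under 0.05, with 122 at an unadjusted p under 0.05 and 0 with limma-trend as well, and the median log2 fold change of all genes was -0.08. Itga4 had the difference farthest from 0 among the members and lay lower in aGVHD, Itgam and Selplg had positive differences of under 0.5, and Itgb2, Itgal and Icam1 stood between.

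Itga4 in S100 cells ran from 28.9 to 473 CPM in the 7 control libraries (median 269) and from 53.7 to 283 CPM in the 12 aGVHD libraries (median 140). Of the aGVHD libraries, 1 of 12 lay above the control mean, and 3 of 7 control libraries lay above the highest aGVHD library, although control replicate 1 had the lowest value of all. The mean level was 268 ± 157 CPM (SD, n = 7) against 145 ± 75.4 CPM (SD, n = 12), and the log2 fold change of Itga4 was -1.05 (SE 0.37, unadjusted p = 0.00943, adjusted p = 0.276 by limma). With 1 library left out it ran from -1.19 to -0.85. Itga4 entered this test with 5 of 7 control and 3 of 12 aGVHD libraries at or above the low-count limit of 199 CPM. Pooled over cells, Itga4 rested on 64 transcripts in 124 control cells and 137 in 564 aGVHD cells. At full depth 29% of control and 17.9% of aGVHD S100 cells had at least 1 Itga4 transcript (exact 95% intervals 21.2% to 37.9% and 14.8% to 21.3%), with median totals of 2777.5 and 2453.5 transcripts. After thinning every cell to 500 transcripts the shares were 2.42% (0.502% to 6.91%) and 3.19% (1.90% to 5.00%), so at that depth a difference in Itga4 detection was not detectable.

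Itgam in S100 cells ran from 86.6 to 924 CPM in control libraries (median 538) and from 485 to 1099 CPM in aGVHD libraries (median 762). Of the aGVHD libraries 10 of 12 lay above the control mean, and 3 control libraries lay below every aGVHD library. The log2 fold change of Itgam was 0.46 (SE 0.30, adjusted p = 0.496 by limma), with 0.62 for dated and -0.06 for G1 libraries. The G1 set rested on 2 control libraries, at 733 and 807 CPM, inside the aGVHD range.

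Selplg in S100 cells ran from 279 to 740 CPM in control libraries (median 414) and from 376 to 1154 CPM in aGVHD libraries (median 630), and 10 of 12 aGVHD libraries lay above the control mean. The log2 fold change was 0.34 (SE 0.23, adjusted p = 0.507 by limma), with 0.35 in the dated and 0.42 in the G1 set. Selplg kept its positive sign in 18 of 18 alternatives run on S100 cells and passed the threshold in none of them, and Itga4 kept its negative sign in the 10 in which it was tested.

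Icam1 in S100 cells ran from 57.7 to 1576 CPM in control libraries (median 514) and from 303 to 980 CPM in aGVHD libraries (median 659). The 2 G1 control libraries, at 1339 and 1576 CPM, lay above all others, and the dated control libraries averaged 393 ± 204 CPM (SD, n = 5). The log2 fold change of Icam1 was -0.04 (SE 0.35, adjusted p = 0.955 by limma), with 0.42 for dated and -0.99 for G1 libraries. The interaction between group and set for Icam1 was 1.55 (SE 0.61, unadjusted p = 0.0192, adjusted p = 0.667 by limma). Its sign also turned to 0.21 when the trimmed-mean factor was left out, a scaling that moved the median of all genes from -0.08 to 0.13.

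Itgb2 in S100 cells ran from 346 to 1301 CPM in control libraries (median 650.5) and from 398 to 1265 CPM in aGVHD libraries (median 651), with a log2 fold change of -0.26 (SE 0.22, adjusted p = 0.606 by limma). Itgal ran from 59.8 to 538 CPM (median 177) and from 105 to 415 CPM (median 154), with a log2 fold change of -0.49 (SE 0.39, adjusted p = 0.578 by limma). For both genes the control range enclosed the aGVHD range.

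**Figure D2:**
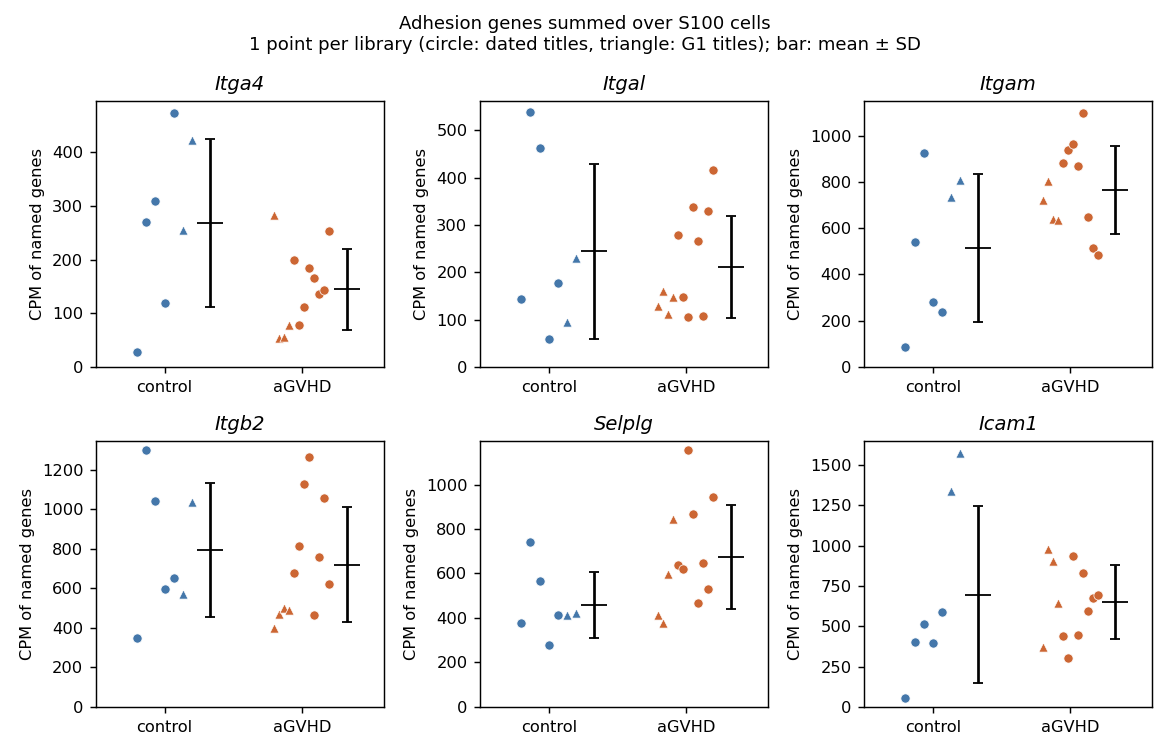
Level of each gene in CPM of named genes (y axis, from 0) summed over S100 cells, in the 7 control and 12 aGVHD libraries with at least 5 such cells; circles are dated and triangles G1 titles, and bars give the mean ± SD. Most aGVHD points for Itga4 lie below the control mean of 268 CPM, and the 2 G1 control points for Icam1 lie above all others.

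The cells of neither class were examined separately, a comparison added after the data had been seen. Here 3 of 455 genes (0.659%) passed limma's threshold, 2 higher (0.44%) and 1 lower (0.22%), 106 had an unadjusted p under 0.05 and limma-trend called 29. Itgam ran from 0 to 550 CPM in the 10 control libraries (median 260) and from 219 to 1258 CPM in the 12 aGVHD libraries (median 563), and 11 of 12 aGVHD libraries lay above the control mean. Its log2 fold change was 1.20 with voom weights (SE 0.36, adjusted p = 0.0894 by limma) and 1.13 with limma-trend (adjusted p = 0.0339). Itgam entered this test through the aGVHD libraries, of which 11 of 12 reached the low-count limit of 314 CPM, against 5 of 10 control libraries. The differences of Itgam in these cells are therefore given as values and not as calls. Other signals moved beside it in these cells. The summed neutrophil markers had a median of 20281 CPM in control (8419 to 36357) and 34296 CPM in aGVHD libraries (15383 to 128990). Of the tested markers 12 of 12 had positive differences, none past the threshold. They include S100a8 (1.72) and S100a9 (1.25), whose transcripts also define the classes, so these genes are not results here. The summed dendritic cell markers had medians of 1349 CPM (192 to 3081) and 411 CPM (171 to 821), with none high enough to be tested. Mitochondrial transcripts made up 19.7% ± 5.66 (SD, n = 10) of control and 12.3% ± 4.19 (SD, n = 12) of aGVHD sums, and mt-Atp8, a subunit gene of ATP synthase, fell by 1.59 on the log2 scale (adjusted p = 0.0342 by limma). Their part in the difference of Itgam was not tested. Icam1 had 0.63 (limma adjusted p = 0.302) and Itgb2 0.47 (limma adjusted p = 0.481). Itga4, Itgal and Selplg were too low in these cells to be tested. The differences of Itgam in S100 cells and in cells of neither class were not tested against each other.

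**Figure D3:**
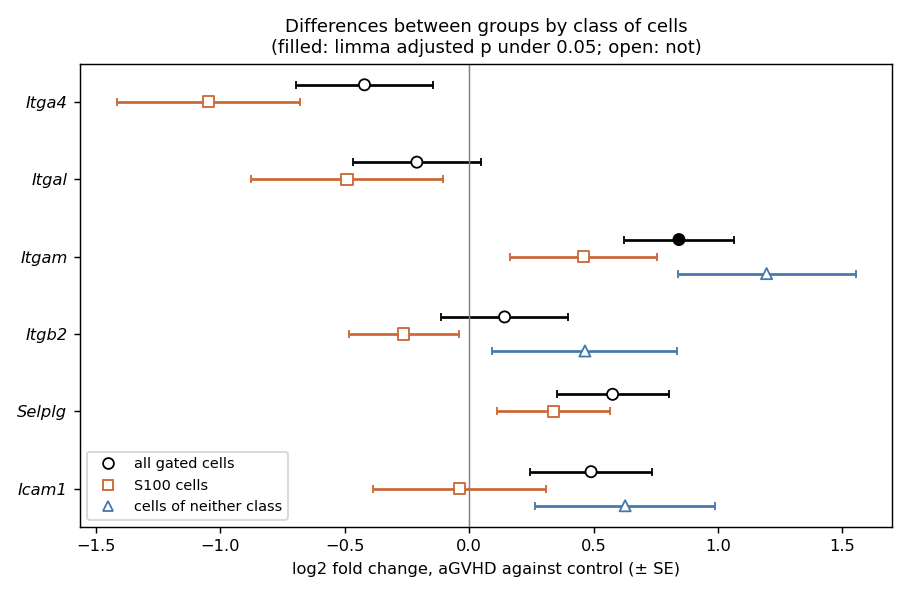
Log2 fold change of each gene, aGVHD against control (x axis; bars are ± SE), over all gated cells, S100 cells and cells of neither class; filled symbols passed limma's adjusted p under 0.05. Only Itgam over all gated cells (0.84) is filled, and Itga4 in S100 cells lies farthest below 0 (-1.05).

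The order of levels put the members into a high and a low group. In S100 cells of aGVHD libraries the mean levels were 766 CPM for Itgam, 721 for Itgb2, 675 for Selplg, 651 for Icam1, 211 for Itgal and 145 for Itga4. Only the step from Icam1 down to Itgal exceeded its own spread over libraries (440 ± 267 CPM, SD, n = 12), with Icam1 higher in 12 of 12 libraries, and the other neighbours did not differ beyond their spread. In S100 cells of control libraries the order was Itgb2 (793 CPM), Icam1 (697), Itgam (515), Selplg (459), Itga4 (268) and Itgal (244). There the step from Selplg to Itga4 was 191 ± 186 CPM (SD, n = 7), with Selplg higher in 5 of 7 libraries. By mean level Itgam thus stood above Itgb2 and Icam1 in aGVHD and below both in control S100 cells. Its step to Itgb2 in aGVHD (45 ± 331 CPM, SD, n = 12) and to Icam1 in control (182 ± 419 CPM, SD, n = 7) was smaller than the spread. The steps to Icam1 in aGVHD and to Itgb2 in control were not set against a spread. In control, Icam1 was higher than Itgam in 4 of 7 libraries, and their medians had the other order (514 CPM for Icam1, 538 for Itgam).

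Among the integrin alpha subunit transcripts the share of Itgam was larger in aGVHD libraries. Of the summed Itgam, Itgal and Itga4 transcripts of all gated cells, Itgam made up 46.6% ± 10.1 (SD, n = 10; 21.7% to 56.5%) in control and 65.2% ± 12.1 (SD, n = 12; 38.2% to 81.7%) in aGVHD libraries. In S100 cells the share was 48.3% ± 15.2 (SD, n = 7; 26.7% to 67.6%) and 68.6% ± 12.2 (SD, n = 12; 42% to 81.6%). This share is a ratio of members within a library and does not depend on the scaling of libraries. It is given as a description, since it combines members whose separate values were already known.

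**Figure D4:**
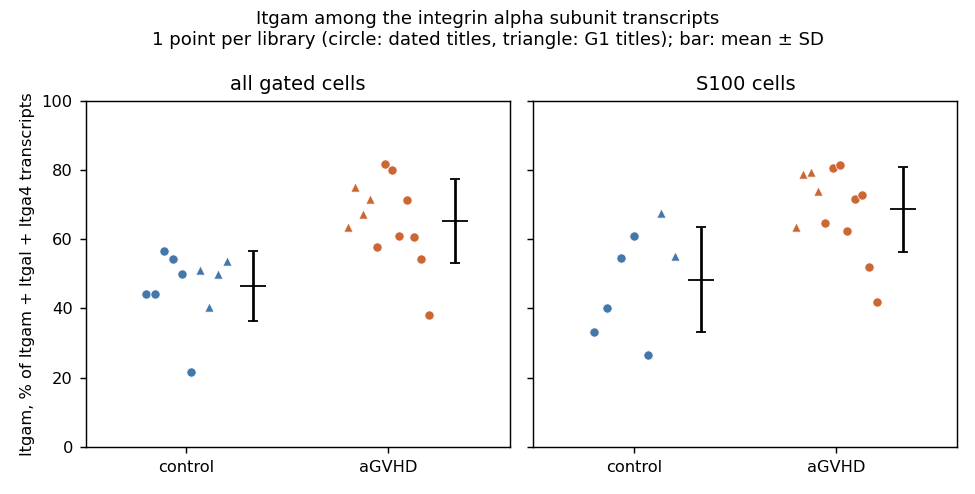
Itgam as a percent of Itgam, Itgal and Itga4 transcripts per library (y axis, 0 to 100), over all gated cells (left) and S100 cells (right); circles are dated and triangles G1 titles, and bars give the mean ± SD. The aGVHD means (65.2% and 68.6%) lie above the control means (46.6% and 48.3%), with overlapping points.

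The members were set against C1q cells of the same libraries to see which differ between the neutrophil and macrophage classes. Only aGVHD replicates 3 and 4 had at least 5 cells of each class, and 139 of 982 genes (14.2%) passed limma's threshold, of which 54 (5.5%) were higher and 85 (8.66%) lower in S100 cells. Itga4 stood at 55.5 and 77.6 CPM in S100 cells, from 4 and 10 transcripts, and at 337 and 360 CPM in C1q cells of those libraries, from 16 and 11 transcripts. It reached the low-count limit of 167 CPM in both C1q sums and in neither S100 sum, so it entered the test only through the class in which it was high, and its log2 fold change of -2.27 (SE 0.50, adjusted p = 0.0405 by limma) is given as a value and not as a call. Without that filter it had -1.93 (limma adjusted p = 0.0910). Selplg had 1.63 (SE 0.43, adjusted p = 0.0573 by limma), Icam1 0.99 (SE 0.35, adjusted p = 0.105 by limma), Itgam 0.84 (SE 0.36, adjusted p = 0.150 by limma) and Itgb2 0.38 (SE 0.38, adjusted p = 0.503 by limma), and Itgal was too low to be tested. A minimum of 3 cells of each class, chosen after the data had been seen, gave 10 libraries, in which 258 of 464 genes (55.6%) passed, 125 of them (26.9%) higher in S100 cells. Selplg had 1.37 (SE 0.36, limma adjusted p = 0.00316) and Icam1 1.09 (SE 0.38, limma adjusted p = 0.0197) in these libraries. The low-count limit of 303 CPM was reached by Selplg in 10 of 10 S100 and 3 of 10 C1q sums and by Icam1 in 9 and 6. Selplg thus entered through S100 cells, and its difference in these 10 libraries is given as a value and not as a call. Itga4 was under the filter there. In simulated sums the test of 2 libraries recovered 1% of genes changed by log2 1 and 29% of those changed by log2 2, so a member that missed the threshold is not shown to be alike in the 2 classes.

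Pooled over libraries, Itga4 stood at 315 CPM in C1q cells (exact 95% Poisson interval 260.5 to 377), 153 CPM in S100 cells (132 to 175) and 148 CPM in cells of neither class (121 to 180). Within each group the intervals of the last 2 classes overlapped. In control libraries Itga4 was at 238 CPM in S100 cells (183 to 304) and 145 CPM in cells of neither class (105 to 195). In aGVHD libraries it was at 131 (110 to 155) and 151 CPM (114 to 195). Whether the order of these classes differs by group was not tested. For Itgam the pooled levels were 729 CPM in S100 cells, 361 in C1q cells and 440 in cells of neither class, and for Selplg 676, 275 and 292 CPM. Itgb2 was at 809, 573 and 411 CPM, Icam1 at 641, 409 and 466, and Itgal at 217, 170 and 106. The members other than Itga4 had their highest pooled level in S100 cells, and for Itgal the intervals of S100 and C1q cells overlapped (192 to 243 and 130 to 217 CPM). By group, the Icam1 intervals of these classes overlapped in aGVHD libraries (596 to 694 and 481 to 688 CPM). In control libraries they lay apart (541 to 735 and 111 to 248 CPM, the latter from 20 cells). For Itgb2 they overlapped in control (710 to 930 and 560 to 829 CPM) and not in aGVHD libraries. These intervals cover counting error only, and aGVHD libraries supplied most of the cells.

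**Figure D5:**
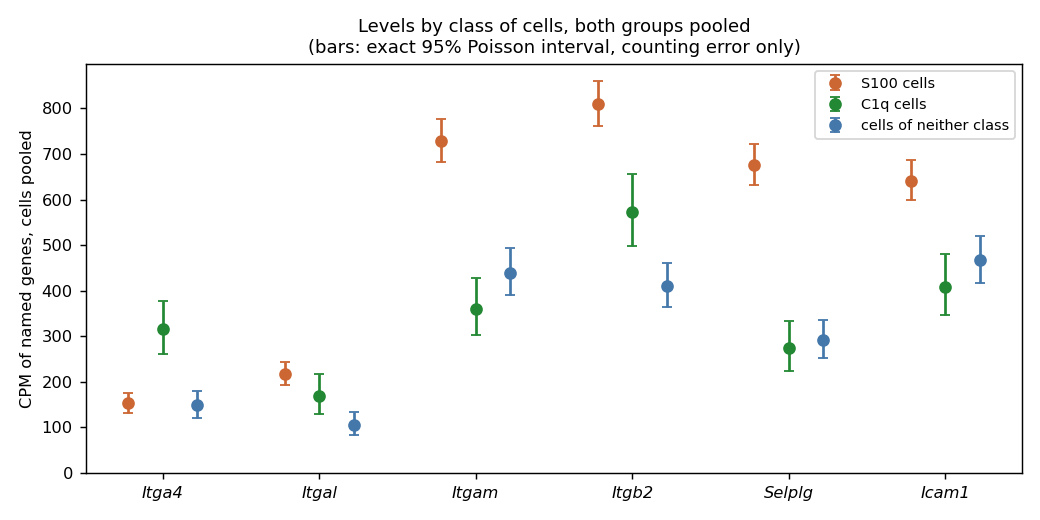
Pooled level of each gene in CPM of named genes (y axis, from 0) in 688 S100 cells, 52 C1q cells and 643 cells of neither class, control and aGVHD together; bars are exact 95% Poisson intervals that cover counting error only. Itga4 is highest in C1q cells (315 CPM), and the other genes are highest in S100 cells.

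Barcodes taken to hold no sorted cell, as read from the totals, also carried these transcripts, and their source was not tested. In them Itgb2 stood at 318 CPM in control and 448 CPM in aGVHD libraries, against 353 and 457 CPM in cells of neither class. The control value of Itgb2 in empty barcodes joined 570 CPM in the dated set, from 18 transcripts, with 87.3 CPM in the G1 set, from 3, while cells of neither class averaged 331 ± 215 (SD, n = 6) and 252 ± 94.1 CPM (SD, n = 4) over control libraries of these sets. In aGVHD libraries the empty barcodes had 498 CPM in the dated and 390.4 CPM in the G1 set, and cells of neither class averaged 796 ± 601 (SD, n = 8) and 294 ± 174 CPM (SD, n = 4). By set, the empty barcodes are pooled over libraries and the cells of neither class are averaged over libraries. These values are not alike in kind, so no order between them is drawn. The pooled level of Itgb2 in S100 cells was 814 and 808 CPM. Itgam stood at 197 and 155 CPM, Selplg at 152 and 97.8, Icam1 at 91 and 147, Itgal at 45.5 and 40.8 and Itga4 at 106 and 65.2 CPM in empty barcodes, where Itga4 rested on 7 and 8 transcripts. In S100 cells the pooled level of Itga4 was 238 CPM in control and 131 CPM in aGVHD libraries.

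Per cell, detection of the members was partial. Of the S100 cells, Itgb2 was found in 69.4% of control and 63.1% of aGVHD cells, Itgam in 56.5% and 61.5%, Selplg in 54.8% and 56%, Icam1 in 41.1% and 41.5%, and Itgal in 33.9% and 26.2%. In C1q cells, whose median totals were 10184.5 and 8052.5 transcripts, Itgb2 was found in 15 of 20 control and 26 of 32 aGVHD cells and Itgam in 16 and 27. After thinning to 500 transcripts, Itgam was found in 19.4% of control (exact 95% interval 12.8% to 27.4%) and 18.8% of aGVHD S100 cells (15.7% to 22.3%), and Selplg in 13.7% (8.19% to 21.0%) and 21.5% (18.1% to 25.1%). Cells are pooled over libraries in these shares, and the intervals leave out the spread between libraries. At least 1 member was missing from nearly all S100 cells, since 3 of 124 control and 9 of 564 aGVHD cells held all 6, and 8 and 32 cells held none.

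Detection of Itgb2 was also counted in S100 cells with and without Itgam, pooled over libraries. In aGVHD libraries 71.2% of 347 cells with Itgam had Itgb2 (exact 95% interval 66.1% to 75.9%), against 50.2% of 217 cells without Itgam (43.4% to 57.1%). The cells with Itgam were also deeper, with a median total of 2821 against 2001 transcripts, and the part of depth in this was not tested. In control libraries the shares were 72.9% of 70 cells (60.9% to 82.8%) and 64.8% of 54 cells (50.6% to 77.3%), with overlapping intervals. These intervals treat cells of different libraries as 1 pool and leave out the spread between libraries. For Itgal the aGVHD shares were 66.9% of 148 cells with it and 61.8% of 416 without it.

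Genes of the same adhesion pathways were taken from 5 lists, chosen with earlier results of these data known. Over all gated cells none of their tested genes passed, 0 higher and 0 lower in each list, against 8.53% of all genes. Among selectins and their ligands 3 of 8 genes were tested, among them the hyaluronan receptor Cd44, with a log2 fold change of 0.26 (limma adjusted p = 0.415), and Cd24a, with 0.56 (limma adjusted p = 0.0565). Of 9 genes that build the sugars of selectin ligands, Gcnt1 was the 1 tested, at 0.68 (limma adjusted p = 0.0620). Of the 17 other integrin subunits listed, 2 were tested, Itgb1, the partner of Itga4, at 0.13 and Itgax (CD11c), another partner of Itgb2, at -0.55 (limma adjusted p = 0.729 and 0.404).

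The list of integrin activation and outside-in signalling had 19 of 24 genes tested, 15 of them with a positive log2 fold change and a median of 0.14, against 0.02 over all genes. The adaptor genes Pxn (paxillin) and Zyx (zyxin), which act at integrin contacts, had 0.67 each (limma adjusted p = 0.128 and 0.131). These were the largest differences of the 19, and the most negative was Rassf5 at -0.18 (limma adjusted p = 0.689). Talin (Tln1), which binds integrin tails during activation, stood at 211 ± 102 CPM (SD, n = 10) in control and 233 ± 58.6 CPM (SD, n = 12) in aGVHD, with a log2 fold change of 0.03. Of the 14 counter-receptors and junction molecules listed, 4 were tested: Ceacam1 had -1.18 (SE 0.64, adjusted p = 0.257 by limma), Sirpa 0.55, Cd47 0.06 and F11r -0.43. Within S100 cells 3, 0, 1, 13 and 3 genes of these lists were tested and none passed. Ceacam1 had -1.96 there (SE 0.65, adjusted p = 0.276 by limma).

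For each member the genes with the most similar pattern over the 22 libraries were found by the root-mean-square difference of mean-centred log2 CPM over the 1712 tested genes. Itgam was nearest to Ogfrl1 (0.40), Ptpn1 (0.42) and Il1r2 (0.42), against an SD of 0.65 for Itgam itself. Selplg was nearest to Ypel5 (0.38), Ehd1 and Il1r2 (0.40 each), Itgb2 to Cd52, Lsp1 (0.41 each) and Lcp1 (0.43), and Icam1 to Akap13, Ifngr1 and Mef2a (0.47, 0.47 and 0.48). Itgal was nearest to Neurl3 (0.38), Mef2d (0.46) and Fam134b (0.49), and Itga4 to Rnf19b (0.54), Usp25 and Lrrfip1 (0.57 each), against an SD of 0.69 for Itga4. No member was among the 3 nearest genes of another member.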

How the data were processed

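The deposited tables, 1 per library with 192 barcodes each, hold estimated counts of transcripts, which the authors made from molecular identifiers and did not normalise for depth, as read from the values: all 1419098 nonzero values are what a whole number of identifiers out of 4096 would give, within 1e-06. Their unit was entered as other, since the headers could not be read as count columns. The submitters' processing notes name BWA 0.6.2-r126 and bcl2fastq 2.17.1.14. The genome build used for mapping and its annotation are not given in the sources used here. Values were rounded and summed per library. Unnamed gene models (6853 of 23091 rows) were left out of totals; they held 32.3% to 78.8% of a library's transcripts.

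Sums were tested with limma 3.58.1 (R 4.3.3) on log2 CPM with voom precision weights, trimmed-mean scaling (trims 0.3 of ratios and 0.05 of levels), the title set as covariate (the library as a block for S100 against C1q cells), a low-count filter (10 transcripts at the median library size, 15 overall) and Benjamini-Hochberg adjustment over all genes tested at 0.05, two-sided. CPM levels carry no trimmed-mean factor. S100 and C1q classes needed at least 5 cells in a library. Thinning used a random seed of 11. Shares have exact binomial and pooled levels exact Poisson 95% intervals (Python 3.11.15, scipy 1.17.1), which cover counting error only. No doublet caller was run. In simulated sums (dispersion 0.2) the test found 40% of genes changed by log2 1 and 100% of those changed by log2 2 for all gated cells (1762 genes), 39% and 96% for S100 cells (841 genes), 67% and 100% for cells of neither class (456 genes), and 1% and 29% for S100 against C1q cells (976 genes).

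The members, gene lists, motifs and classes were chosen with earlier results of these data known. The 6 members, up to 4 genes per adhesion list and the 3 nearest genes per member are named. In RefSeq, Itga4 overlaps Cerkl, and the other members overlap no gene. Alternatives changed the scaling, filter, cell minimum, class limits, library choice and covariate, and left out each library. Protein sequences were not used here.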

Additional observations from a re-analysis of the deposited data

Results flagged for a closer look

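In cells of neither class, 2 single control libraries stood apart from the rest of their group. They came from 18 combinations of gene and class of cells examined this way, all of them in control libraries. Chance alone marks about 1 in 20. The 12 aGVHD libraries were not examined this way, since the outlier limits used did not reach that number of libraries. Itgal in control replicate 5 was at 383 CPM, from 2 transcripts in 8 cells, and the next control library was at 164 CPM. Selplg in control replicate 3 was at 641 CPM, and the next control library was at 290.2 CPM. Neither gene was high enough in these cells to be tested between groups.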

How the results depend on the processing

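The count of 146 genes past limma's adjusted p under 0.05 over all gated cells ran from 62 to 188 with 1 library left out. It was 2141 of 16063 genes without the low-count filter, which moved the median log2 fold change of all genes to -0.58, 11 of 248 after thinning, 19 over libraries with at least 20 cells and 24 without cells of high total or Kcnq1ot1. It was 53 in the dated set alone and 9 in the G1 set alone. Without the filter Icam1 (0.83, limma adjusted p = 0.0393) and Selplg (0.91, limma adjusted p = 0.0262) passed as well. The sign of Itgal turned to 0.050 without the filter, and that of Itgb2 to -0.20 after thinning, -0.0073 without cells of high total or Kcnq1ot1 and -0.16 in the G1 set alone. None of these reversed values of Itgal and Itgb2 passed the test.

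In S100 cells the count of 0 stayed 0 with each library left out. It was 29 of 14612 genes without the filter and 1 with at least 3 S100 transcripts. Icam1, at -0.04, ran from -0.29 to 0.22 with 1 library left out. It was 0.21 with library totals, 0.48 without the filter, 0.0099 with limma-trend, 0.050 and 0.00019 at minimums of 250 and 1000 transcripts, 0.044 over libraries with at least 20 cells and 0.42 in the dated set. It was 0.22 and 0.11 with at least 3 and 10 S100 transcripts, 0.13 with no C1q transcript and 0.11 without the covariate. Without the filter Itgal was 0.22 and Itgb2 0.26, and in the G1 set alone Itgam was -0.055. The cause of these changes was not tested.

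In cells of neither class the count of 3 ran from 0 to 27 with 1 library left out. It was 44 without the filter, 29 with limma-trend, 0 after thinning, 0 over libraries with at least 20 cells, 32 in the dated set, 0 in the G1 set and 1 without the covariate. Itgam is given there as a value and not as a call. It had 1.31 (adjusted p = 0.0363 by limma) without control replicate 7 and 1.23 (adjusted p = 0.0441 by limma) without aGVHD replicate 1. For S100 against C1q cells the count of 139 was 275 with library totals, 226 with median-of-ratios factors, 319 without the filter, 270 with all rows in the total and 14 after thinning. It was 218 with at least 3 C1q transcripts, 280 and 228 with at least 3 and 10 S100 transcripts, 251 with no C1q transcript in S100 cells, 258 and 241 with at least 3 and 1 cells of each class, and 9 of 14 with at least 1 thinned cell. Selplg missed the threshold in the main fit and passed in 12 of 14 alternatives there. Those that changed only the scaling, filter or total used the same 2 libraries, so they are not separate evidence. With at least 3 cells of each class Selplg entered through S100 cells, so it is not given as a call. This comparison could not be fitted with at least 10 cells of each class, with at least 10 C1q transcripts, without cells of high total or Kcnq1ot1, or with either of its 2 libraries left out.

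The 6 title numbers that recur in both groups of the dated set were tried as a replicate block. The same-numbered libraries did not deviate together throughout (correlations from -0.08 to 0.17, and 2 of 6 numbers correlated best with their own), so the numbers are not taken as pairs. With the block, counts were 23 over all gated cells, 3 in S100 cells and 74 in cells of neither class, against 8, 2 and 11 for the same libraries without it. With the block Itgam was 1.12 over all gated cells (limma adjusted p = 0.0494; 1.144 and 0.0671 without it), and in S100 cells Icam1 was 0.20 and Itgb2 0.068 (0.27 and 0.085 without it). In cells of neither class Itgam was 1.80 (limma adjusted p = 0.0170) and Itgb2 1.15 (limma adjusted p = 0.0361) with the block. Of 12 alternatives in which Itgb2 was tested in these cells, it passed in this 1 only. Since the numbers are not taken as pairs, both are values and not calls. The 3 control libraries of 11 or 12 cells limit what can be seen in low genes such as Itga4.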
